A study of Mus musculus with 6 samples.

Results

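The genes described here are 5 RNA polymerase III (Pol III) transcripts and 4 protein partners of such RNAs, 9 of the 46983 genes in the count tables. They were chosen by name: the RNAs are Rn7sk, Rmrp, Rpph1, Rny1 and Rny3, and the protein genes are Larp7, Mepce, Hexim1 and Ssb. All 9 passed the filter on low values, which left 12336 genes for testing, though Rny1 would not have passed without the controls. They were measured by sequencing total RNA, depleted of rRNA, of naïve CD4 T cells that had been sorted from mouse lymph nodes by TCRb+, CD4+, CD62L+, CD44- and live gates. The 3 control libraries came from Rnmt fl/fl CD4cre- mice and the 3 Rnmt cKO libraries from Rnmt fl/fl CD4cre+ mice, all male, so both groups carried loxP sites around exon 3 of Rnmt and only the Rnmt cKO group carried Cre. Cre was driven by Cd4 regulatory sequence (Tg(Cd4-cre)1Cwi), on a C57B6/J background, and the presence of the transgene cannot be told apart from the loss of Rnmt. The ages of the mice were not given in the sources used here.

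RNMT methylates the cap guanosine of RNA polymerase II (Pol II) transcripts. Pol III transcripts do not receive that cap. They begin with a triphosphate, which in 7SK RNA carries a single methyl group placed by MEPCE, and they end in a short run of U, to which the La protein (Ssb) binds on new transcripts. 7SK RNA, with MEPCE, LARP7 and HEXIM1, holds the kinase P-TEFb inactive and so limits the release of paused Pol II. The RNA of RNase P (Rpph1) is the catalytic RNA that trims the 5′ end of tRNA precursors, the RNA of RNase MRP (Rmrp) acts in rRNA processing, and Y RNAs (Rny1 and Rny3) are bound by the Ro protein.

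The parts of the RNAs that these partners contact are shown with their annotated sequence (GENCODE vM21, GRCm38, the same build as mm10). In 7SK the sequence GAUC, part of the site at which HEXIM1 binds, lies in the 5′ stem. The first 100 bases of Rn7sk (minus strand, chr9:78175534-78175633) hold GATC 3 times, at positions 13, 42 and 64, shown in capitals. The capitals mark every GATC in this stretch, and which of them belong to the HEXIM1 site was not determined here. GATC reads the same on both strands, does not overlap itself here, and occurs at least once in the first 100 bases of 23.4% of annotated transcripts of that length or longer, and at least 3 times in 0.323% of them.
Rn7sk, bases 1 to 100: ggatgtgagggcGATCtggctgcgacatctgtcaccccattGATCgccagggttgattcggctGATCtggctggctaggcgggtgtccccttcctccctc

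The 3′ ends are shown because LARP7 and La bind the terminal run of U, here written as T and in capitals. The last 30 bases are given for Rn7sk (chr9:78175303-78175332, minus strand), Rmrp (chr4:43492788-43492817, minus strand) and Rpph1 (chr14:50807449-50807478, minus strand), and the whole RNA for Rny1 (chr6:47788069-47788180, minus strand) and Rny3 (chr6:47781624-47781725, plus strand).
Rn7sk 3′ end: ggcgctgcatgtggcagtctgcctttcTTT
Rmrp 3′ end: caaccacacggggctcattctcagcgcggc
Rpph1 3′ end: ataacccaattcagactactctcccccgcc
Rny1: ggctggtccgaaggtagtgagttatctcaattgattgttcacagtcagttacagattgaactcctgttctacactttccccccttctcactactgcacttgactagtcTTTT
Rny3: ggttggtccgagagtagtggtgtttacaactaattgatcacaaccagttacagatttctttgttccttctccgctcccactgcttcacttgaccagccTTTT
The annotated ends of Rn7sk (331 bases) and of Rny1 and Rny3 (112 and 102 bases) keep 3, 4 and 4 terminal T, while those of Rmrp (271 bases) and Rpph1 (319 bases) end without one. Of all annotated transcripts, 3.06% end in at least TTT and 1.34% in at least TTTT. Rny1 and Rny3 face opposite strands with 6343 bases between them, and 81 of 112 aligned positions, or 72.3%, are identical.

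All 5 RNAs were lower in Rnmt cKO cells and none of the 4 protein genes passed the test in either direction (edgeR exact test, adjusted p under 0.05), nor did any of the 4 have an unadjusted p under 0.05 or a call with DESeq2 or the quasi-likelihood test. Each of the 5 RNAs had every Rnmt cKO library below every control library, at fitted levels 1.87-fold (Rn7sk) to 2.51-fold (Rny1) lower. Over all 12336 genes tested, 6.79% were lower and 7.97% higher by the same rule, and 14.9% had every Rnmt cKO library below every control and 16.6% every one above. The median log2 fold change was -1.17 for the 5 RNAs, 0.06 for the 4 protein genes and 0.01 for all genes tested. The size of the fall varied between libraries: control 1 was the highest control and Rnmt cKO 3 the highest Rnmt cKO library for every one of the 5 RNAs.

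**Figure D1:**
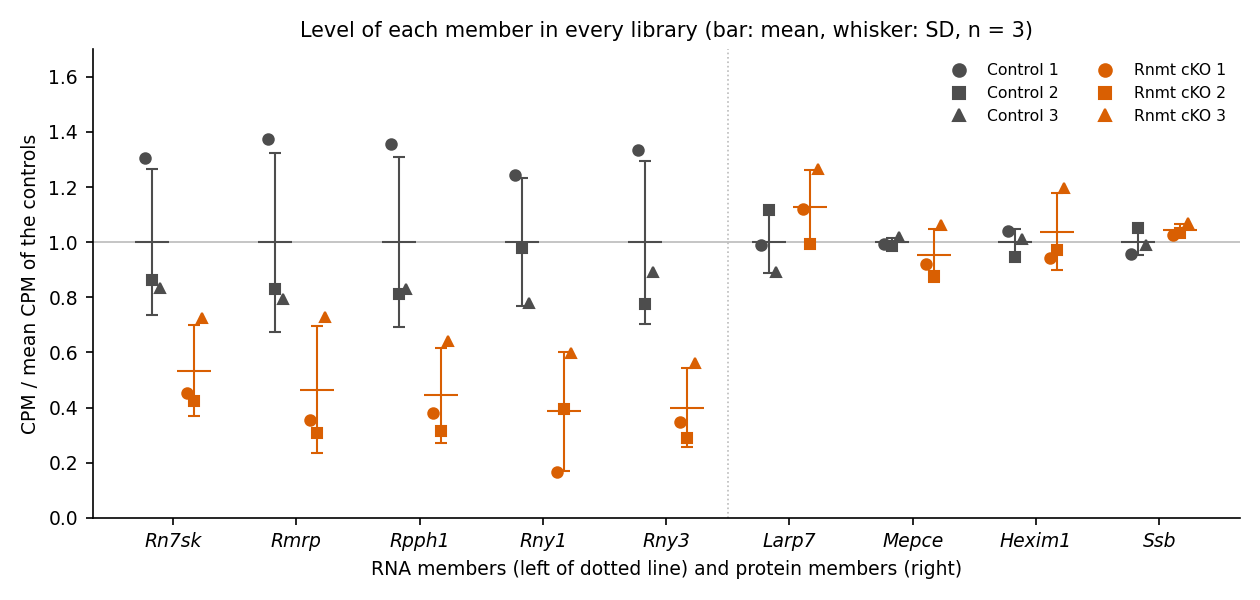
Level of each of the 9 genes in every library in CPM, its count per unit of scaled library size, divided by the mean of the 3 controls (y axis, linear), with symbols for libraries, horizontal bars for group means and whiskers for the SD (n = 3). For the 5 RNAs the 3 Rnmt cKO libraries lie below all controls with Rnmt cKO 3 nearest to them, and for the 4 protein genes the groups overlap.

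The libraries held between 8873413 and 11277764 sense gene counts. Within each group, every pair of libraries differed beyond counting error (chi-square per degree of freedom from 3.64 to 22.9). The share of all reads mapping to several places ran with the level of the RNAs: it was 14.3%, 11.5% and 9.90% in controls 1 to 3 and 7.38%, 7.32% and 11.97% in Rnmt cKO 1 to 3, and its part in the result was not tested beyond the covariate given below. Rnmt, the targeted gene, held 438, 588 and 524 counts in controls and 397, 444 and 297 in Rnmt cKO libraries, with log2 fold change -0.67 (SE 0.20) and adjusted p = 0.000364 (edgeR exact test), over the whole gene and not exon 3 alone. All 12 markers of naïve CD4 T cells were above 1 CPM in every control. Summed markers of other cells moved with the group: 44.0 to 51.6 CPM in controls against 56.6 to 100.2 CPM in Rnmt cKO libraries for 8 B cell markers (5 higher), 26.3 to 32.7 against 34.7 to 54.9 CPM for 9 myeloid markers (3 of 6 tested higher), 21.7 to 23.3 against 13.5 to 17.3 CPM for 2 CD8 T cell markers (both lower) and 4.75 to 7.52 against 1.06 to 1.35 CPM for 5 erythroid markers (both tested ones lower). No marker of these lists was at 0 in all libraries, and of 30 proliferation genes 28 were higher, from a sum of 533 to 579 CPM to 1033 to 1106 CPM. The myeloid S100a8 and S100a9 passed the filter only through Rnmt cKO libraries, and the erythroid Hba-a1 and Hbb-bs only through controls. The filter thus partly set these calls. Of the proliferation genes, 23 were above 1 CPM in every control. The part of other cell types and of proliferation genes in the results was not tested. In bulk RNA, fewer cells of a type and less RNA per cell cannot be told apart.

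7SK RNA (Rn7sk, ENSMUSG00000065037) had the highest level per base of exon of all genes in controls. It held 417954, 325515 and 283654 counts in controls 1 to 3 and 161705, 189360 and 304603 counts in Rnmt cKO 1 to 3. Scaled to library size this was 49136, 32491 and 31330 CPM in controls against 17088, 15976 and 27301 CPM in Rnmt cKO libraries, so that the groups did not overlap but control 3 and Rnmt cKO 3 lay close. The mean fell from 37652 ± 9962 to 20122 ± 6243 CPM (SD, n = 3 each), a log2 fold change of -0.90 (SE 0.32), with adjusted p = 0.00112 (edgeR exact test). With DESeq2 the log2 fold change was -0.92 and the adjusted p = 0.0631, which did not pass.
Some 68.1% of the 50-base words of Rn7sk also occur in 7 other annotated genes on the sense strand. Since only uniquely mapped reads were counted, reads from those stretches could be lost or split. The 7 genes together held 280, 197 and 215 counts in controls and 114, 127 and 206 in Rnmt cKO libraries, far below Rn7sk itself.

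Rpph1 (ENSMUSG00000092837), the RNA of RNase P, held 323880, 228602 and 210920 counts in controls and 100953, 104604 and 200540 in Rnmt cKO libraries. Its CPM were 38077, 22817 and 23297 in controls and 10668, 8825 and 17974 in Rnmt cKO libraries. All 3 Rnmt cKO libraries were below the lowest control, with a log2 fold change of -1.17 (SE 0.39) and adjusted p = 0.000243 (edgeR exact test).
Rmrp (ENSMUSG00000088088), the RNA of the related RNase MRP, held 96585, 68727 and 59526 counts in controls and 27885, 30167 and 67210 in Rnmt cKO libraries. The raw count of Rnmt cKO 3 was above that of control 3, and the groups separated after scaling, at 11355, 6860 and 6575 CPM in controls against 2947, 2545 and 6024 CPM in Rnmt cKO libraries. The log2 fold change was -1.11 (SE 0.46) with adjusted p = 0.00394 (edgeR exact test). The call was lost with DESeq2 (adjusted p = 0.150), without control 1 (edgeR adjusted p = 0.0595, log2 fold change -0.81) and without Rnmt cKO 1 (edgeR adjusted p = 0.0518, log2 fold change -0.95).
Ccdc107 overlaps 124 bases of Rmrp on the opposite strand, and counts that ignore strand kept 3.35% to 4.33% of the sense counts of Rmrp, with log2 fold change -1.26. Rpph1 lies within Ccnb1ip1 on the same strand in the annotation used here, and Ccnb1ip1 held at most 1 count a library. The log2 ratio of Rmrp to Rpph1 was -1.77 ± 0.05 in controls and -1.74 ± 0.15 in Rnmt cKO libraries (SD, n = 3 each), a difference of 0.03 that lay within the spread, with exact two-sided permutation p = 0.90.

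The Y RNAs had few counts in these libraries, so counting error weighs more on them. Rny3 (ENSMUSG00000064945) held 76, 52 and 54 counts in controls and 22, 23 and 42 in Rnmt cKO libraries, or 8.93, 5.19 and 5.96 CPM against 2.32, 1.94 and 3.76 CPM. No Rnmt cKO library reached the lowest control. Its log2 fold change was -1.31 (SE 0.35) with adjusted p = 0.000817 (edgeR exact test), and it was the one RNA of the 5 that was called lower under all 17 alternatives in which it was tested (adjusted p from 3e-06 to 0.0487).
Rny1 (ENSMUSG00000065701) held 27, 25 and 18 counts in controls and 4, 12 and 17 in Rnmt cKO libraries. These were 3.17, 2.495 and 1.99 CPM against 0.423, 1.01 and 1.52 CPM, with log2 fold change -1.33 (SE 0.47) and adjusted p = 0.00955 (edgeR exact test). With Rnmt cKO 1 at 0.423 CPM, Rny1 would not have passed the filter without the controls, so the filter partly set its call. The smallest gap between groups, from Rnmt cKO 3 to control 3, was that of 17 and 18 counts before scaling, and the call was lost in 7 of 16 alternatives, among them DESeq2 (adjusted p = 0.0675) and edgeR without Rnmt cKO 1 (adjusted p = 0.117).

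For the protein genes of the 7SK complex the groups overlapped. Larp7 (ENSMUSG00000027968), whose product binds the 3′ end of 7SK, held 315, 419 and 302 counts in controls and 397, 441 and 528 in Rnmt cKO libraries. At 37.4 ± 4.24 CPM against 42.2 ± 5.06 CPM (SD, n = 3 each) the groups overlapped, with log2 fold change 0.17 (SE 0.14) and adjusted p = 0.465 (edgeR exact test). Mepce (ENSMUSG00000029726), the capping enzyme of 7SK, held 641, 749 and 698 counts against 659, 788 and 897, or 75.7 ± 1.21 against 72.2 ± 7.30 CPM (SD, n = 3 each).
The log2 fold change of Mepce was -0.07 (SE 0.08) with adjusted p = 0.763 (edgeR exact test), and its sign turned with no scaling beyond library size (0.05). Hexim1 (ENSMUSG00000048878), the inhibitor of P-TEFb, held 372, 398 and 384 counts in controls and 375, 484 and 561 in Rnmt cKO libraries. Its means were 42.0 ± 2.04 and 43.6 ± 5.83 CPM (SD, n = 3 each), with log2 fold change 0.06 (SE 0.11) and adjusted p = 0.858 (edgeR exact test). Between 10.4% and 16.4% of the stranded counts at Hexim1 were antisense, the highest share among the 9 genes.
Ssb (ENSMUSG00000068882), the La protein, was the most abundant of the 4. It held 1535, 1986 and 1691 counts in controls and 1833, 2308 and 2246 in Rnmt cKO libraries, or 188 ± 9.01 and 197 ± 4.13 CPM (SD, n = 3 each). Its groups overlapped, with log2 fold change 0.06 (SE 0.04) and adjusted p = 0.763 (edgeR exact test). None of the 4 protein genes was called in any of the 18 alternatives, where log2 fold changes ran from 0.06 to 0.30 for Larp7, from -0.17 to 0.05 for Mepce, from -0.08 to 0.20 for Hexim1 and from 0.02 to 0.18 for Ssb.

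The mRNA of each 7SK partner was also set against Rn7sk within each library. The geometric mean of the ratio of Larp7 to Rn7sk was 2.13-fold higher in Rnmt cKO libraries. That of Hexim1 was 1.95-fold and that of Mepce 1.79-fold higher, and in each case every Rnmt cKO library was above every control. The 3 ratios share Rn7sk, which was lower, while none of the 3 mRNAs was called. They thus largely restate the fall of Rn7sk and are not 3 separate results. On the log2 scale the ratio of Larp7 to Rn7sk was -10.37, -9.60 and -9.88 in controls and -8.67, -8.75 and -9.17 in Rnmt cKO libraries. Each of these 3 ratios had an exact two-sided permutation p = 0.10, the smallest that 3 against 3 allows, and 0.125 after adjustment over the 5 ratios and shares tested. These are counts of mRNA, not of protein.

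The 5 RNAs took 8.99%, 6.09% and 5.98% of the sense gene counts in controls 1 to 3 and 3.27%, 2.93% and 5.08% in Rnmt cKO 1 to 3, nearly all of it Rn7sk, Rpph1 and Rmrp. The 95% Wilson intervals, which cover counting error only, ran from 5.966% to 5.996% for the lowest control and from 5.06% to 5.09% for the highest Rnmt cKO library. The mean share was 7.02% ± 1.71 in controls against 3.76% ± 1.15 in Rnmt cKO libraries (SD, n = 3 each), with exact two-sided permutation p = 0.10 (0.125 adjusted). As a share of all uniquely mapped reads the groups overlapped, since Rnmt cKO 3 at 3.40% lay above control 3 at 3.16% (exact permutation p = 0.20).

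**Figure D2:**
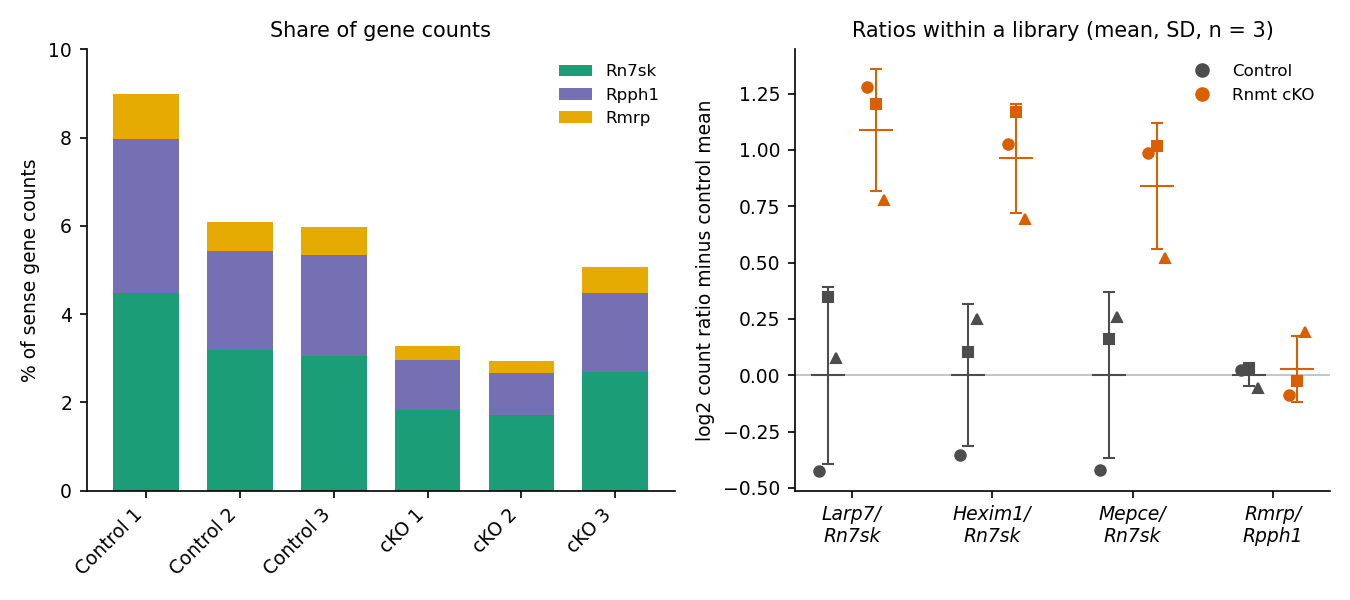
Left, percent of sense gene counts in each library that fell on Rn7sk, Rpph1 and Rmrp (stacked bars; Rny1 and Rny3 are too small to show). Right, log2 count ratios within a library minus the mean of the controls, with circles, squares and triangles for libraries 1, 2 and 3, bars for means and whiskers for the SD (n = 3): the 3 ratios to Rn7sk are higher in every Rnmt cKO library, and the ratio of Rmrp to Rpph1 overlaps.

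Per base of exon, in RPKM (CPM per kilobase of exon), the order in controls was Rn7sk (113753), Rpph1 (87973), Rmrp (30491), Ssb (87.3), Rny3 (65.7), Rny1 (22.8), Mepce (21.3), Larp7 (15.8) and Hexim1 (12.005). The ranges over the 3 controls overlapped for 3 neighbouring pairs, which were Rn7sk and Rpph1, Ssb and Rny3, and Rny1 and Mepce. How well RNAs of 112 and 102 bases (Rny1 and Rny3) were recovered in these libraries was not measured. Scaling by length does not correct for it, so the order describes sequenced reads and not molecules in the cell. In Rnmt cKO libraries Rny3 (26.2 ± 9.43 RPKM, SD, n = 3) lay far below Ssb (91.0 ± 1.91 RPKM) and Rny1 (8.81 ± 4.92 RPKM) below Hexim1 (12.5 ± 1.67 RPKM), though the ranges of Rny1 and Hexim1 overlapped. Variation between libraries of a group was larger for the RNAs than for the protein genes, with a coefficient of variation of 23.3% to 32.4% against 1.60% to 11.3% in controls and 31.0% to 55.9% against 2.10% to 13.4% in Rnmt cKO libraries.

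The tests depended on how this spread was handled. Over the 18 alternatives all 5 RNAs stayed below control in each one in which they were tested, with log2 fold changes from -1.21 to -0.45 for Rn7sk, -1.61 to -0.50 for Rmrp, -1.54 to -0.64 for Rpph1, -1.77 to -0.82 for Rny1 and -1.66 to -0.84 for Rny3. The smallest falls came with the share of reads mapping to several places as a covariate, a fit added after the data had been seen, in which Rn7sk (edgeR adjusted p = 0.0031), Rmrp (0.00175), Rpph1 (0.000596) and Rny3 (0.0285) were called and Rny1 was not (0.159). The largest came without Rnmt cKO 3. The libraries also fell into sets by the share of unique reads in no gene, 31.8% to 39.7% in controls 1 and 2 and Rnmt cKO 3 and 46.1% to 47.9% in the other 3. Within the first set the log2 difference of Rn7sk was -0.55 and within the second -0.92, with -0.71 and -1.26 for Rpph1 and -0.55 and -1.26 for Rmrp, each from 3 libraries and without a test.

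**Figure D3:**
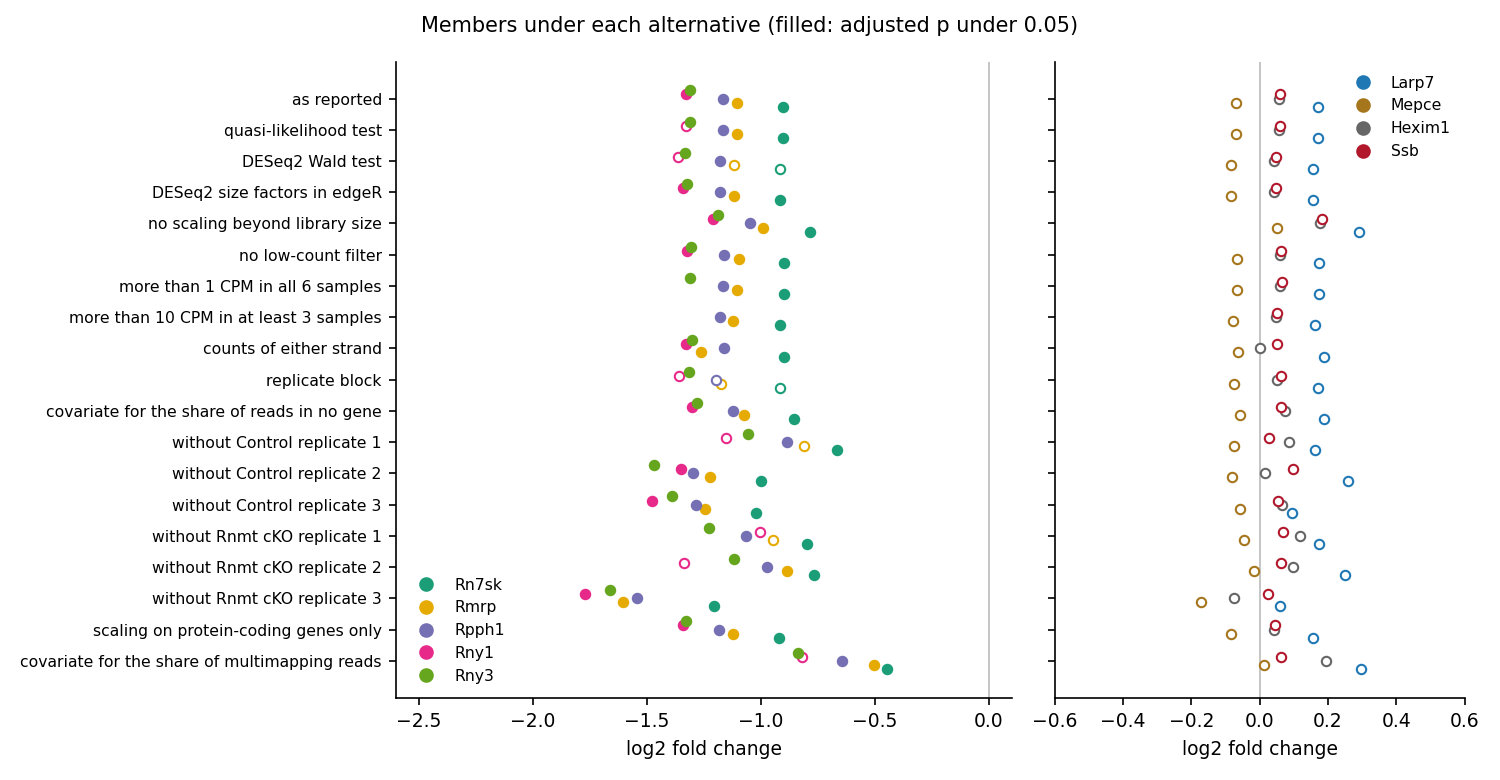
Log2 fold change, Rnmt cKO over control (x axis), of the 5 RNAs (left) and the 4 protein genes (right, on another scale) as reported and under each of 18 alternatives (rows), filled where the adjusted p is under 0.05. All RNA values are below 0, open circles gather on Rny1, DESeq2 and the replicate block, and no protein gene is filled.

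A part of the other small RNAs was lower too. Of 14 other Pol III RNAs looked up, 10 were in the tables and 5 of these had no count in any library. Of the 3 that were tested, 1 was lower: the vault RNA Vaultrc5, with 109, 73 and 72 counts in controls and 25, 26 and 70 in Rnmt cKO libraries, had log2 fold change -1.33 (SE 0.51) and adjusted p = 0.00613 (edgeR exact test). With 3 genes tested this count cannot be set against the 6.79% of all genes that were lower, and the call held in 13 of 17 alternatives. It was lost with the replicate block and without control 1, Rnmt cKO 1 or Rnmt cKO 2 (edgeR adjusted p from 0.0542 to 0.0866). Rnu6, a gene of the Pol III transcript U6, held 2 counts in control 1 and 0 in the other libraries, and was not tested. The study's own small RNA analysis of naïve cells, which also counted reads mapping to several places, found U6 not repressed. Genes of 7SL, the RNA of the signal recognition particle, held at most 20 counts a library, and Rn7s2 (log2 fold change -0.71, edgeR adjusted p = 0.183) and Rn7s6 (-0.87, 0.226) were not called. Of 8 tested genes in a list of small RNAs made by Pol II, 4 were lower and 1 higher, with a median log2 fold change of -0.52. The lower ones were 3 RNAs that are capped on their own, Rnu12, of the minor spliceosome (log2 fold change -1.74, edgeR adjusted p = 1.02e-13), Rnu11, of the same spliceosome (-1.25, 2.54e-06), and Terc, the telomerase RNA (-0.80, 0.00323), and 1 that is not, the intron-encoded small nucleolar RNA Rnu73b (-1.22, 0.0167). Rnu12 and Rnu11 were called in all alternatives in which they were tested, Terc in 16 of 18, without a call when control 1 was left out or with the replicate block, and Rnu73b in 11 of 16, without a call in DESeq2 or when control 2 or control 3 was left out. The higher one, named after its values were seen, was Snord13, with 12, 8 and 11 counts in controls and 15, 28 and 51 in Rnmt cKO libraries (1.33, edgeR adjusted p = 0.0306). Its call held in 8 of 16 alternatives and was lost, among others, with DESeq2 (adjusted p = 0.0813), without Rnmt cKO 3 and without any one control. Snord13 (0.799 CPM in control 2) would not have passed the filter without Rnmt cKO libraries. Rnu73b (0.627 CPM in Rnmt cKO 3) would not have passed it without controls.
All tested genes were also divided by length and annotation class, a division made after the data had been seen. Among misc_RNA, ribozyme, snRNA, snoRNA and scaRNA genes without the 5 RNAs, 14 of 35 tested genes of 150 to 350 bases (40.0%) were lower and 0 higher, with a median log2 fold change of -0.79, and 31 of 103 genes under 150 bases (30.1%) were lower and 3 higher, with a median of -0.49. Only the 5 RNAs were left out of these classes, by name. The 7 genes that share 50-base words with Rn7sk were not removed where they were tested. Together they held 280, 197 and 215 counts in controls and 114, 127 and 206 in Rnmt cKO libraries. The shares of these classes may therefore hold some signal of Rn7sk itself. Among protein-coding genes over 1000 bases, 6.51% of 10171 were lower, with a median of 0.02. No difference between Pol III RNAs and other short RNAs was tested.

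**Figure D4:**
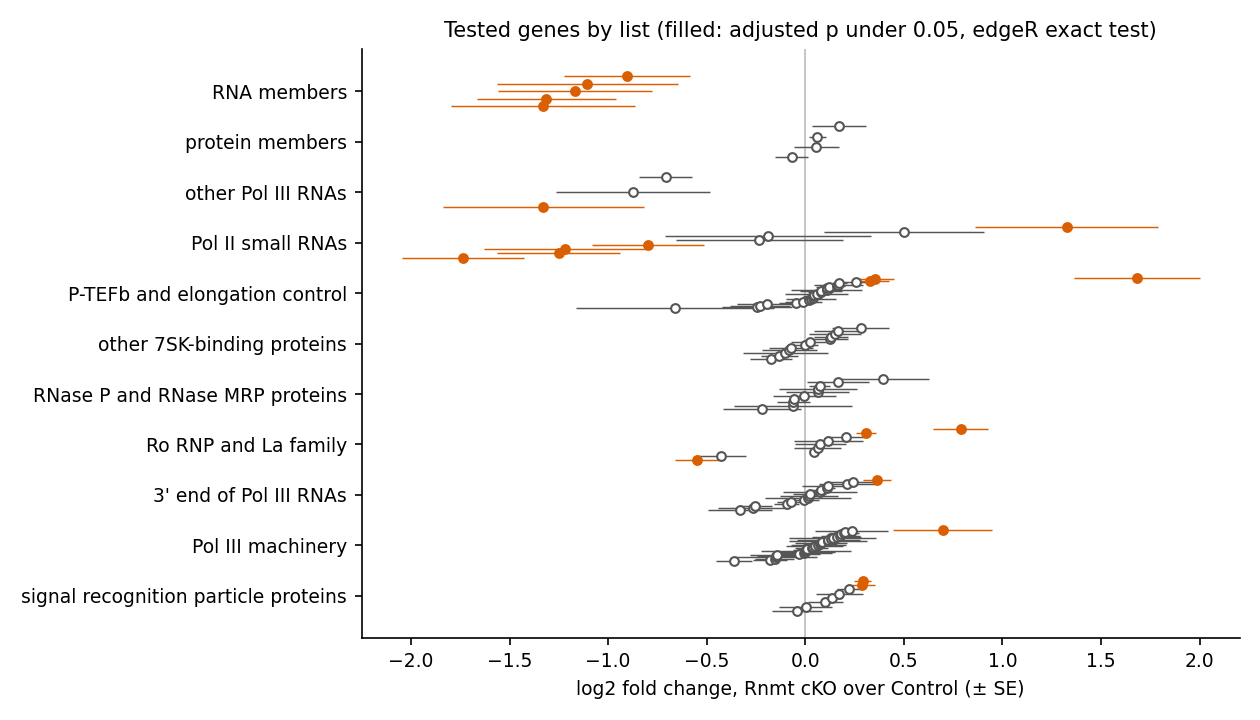
Log2 fold change with SE (x axis) of every tested gene of the 5 RNAs, the 4 protein genes and 9 further lists (rows), filled where the adjusted p of the edgeR exact test is under 0.05. The 5 RNAs and most small RNAs lie left of 0, and the protein lists centre close to 0 with single genes called.

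Proteins that work with these RNAs, with some other RNA-binding proteins, were looked up in 7 lists. Of their 109 tested genes 9 were higher, or 8.26%, beside 7.97% of all genes tested, and 1 was lower, or 0.917%, beside 6.79%, with a median log2 fold change of 0.06. The higher calls were thus at the share found over all genes. Of 24 genes of P-TEFb and elongation control 0 were lower and 3 higher, with a median log2 fold change of 0.07. Hexim2, a paralogue of Hexim1 that can take its place on 7SK, rose from 8, 11 and 19 counts in controls to 46, 48 and 50 in Rnmt cKO libraries, and was the list's largest change (log2 fold change 1.68, SE 0.32, edgeR adjusted p = 4.64e-06). Control 1 lay at 0.94 CPM, so Hexim2 would not have passed the filter without Rnmt cKO libraries. The filter thus partly set its call. Hexim2 was called in all 16 alternatives in which it was tested, and the stricter filters left it out. At 1.88 ± 0.17 RPKM (SD, n = 3) in Rnmt cKO libraries it stayed below Hexim1. Cdk9, the kinase of P-TEFb, rose from 41.4 ± 4.58 to 52.9 ± 1.72 CPM (log2 fold change 0.35, edgeR adjusted p = 0.0161), in 12 of 18 alternatives and not with DESeq2 or when library 1 or 2 of either group was left out, while its cyclin Ccnt1 was not called (0.17, edgeR adjusted p = 0.207). Nelfcd, a subunit of the pausing factor NELF, was the third (0.33, edgeR adjusted p = 0.0421) and was called in 7 of 18 alternatives, none of them with control 1, control 3 or either of Rnmt cKO 1 and 2 left out.
Of 12 other proteins that bind 7SK 0 were called, with a median log2 fold change of 0.01, and of 10 tested proteins of RNase P and RNase MRP 0 were called, with a median of 0.03. At an unadjusted p under 0.05 the edgeR exact test gave 1 gene in the first list and 0 in the second, DESeq2 and the quasi-likelihood test called 0 in both, and over all alternatives up to 2 were called higher in either list and up to 1 lower in the first.
A further list joined the Ro particle and the La family with other RNA-binding proteins, among them Pabpc1 and Ybx3. Of its 9 tested genes 1 was lower and 2 higher, with a median of 0.08. Pabpc1, the cytoplasmic poly(A)-binding protein, fell (log2 fold change -0.55, edgeR adjusted p = 5.25e-05), and Ybx3, a cold shock protein (0.79, edgeR adjusted p = 0.000563), and Larp1, which binds capped mRNAs with a 5′ pyrimidine tract (0.31, edgeR adjusted p = 0.0095), rose. Pabpc1 was called in all 18 alternatives and Ybx3 in 17, without a call under the replicate block, while Larp1 was called in 13 and not when library 1 or 2 of either group was left out (edgeR adjusted p up to 0.119). Trove2, which encodes the Ro protein itself, held 102, 104 and 98 counts in controls and 81, 108 and 78 in Rnmt cKO libraries, with log2 fold change -0.43 and adjusted p = 0.123 (edgeR exact test).
Of 16 genes for the maturation of the 3′ end 1 was higher, the deadenylase Parn (0.36, edgeR adjusted p = 0.00501), and the median was 0.02. The call of Parn held in 15 of 18 alternatives and was lost without control 1, without control 3 and with the replicate block. Of 30 genes of the Pol III machinery 1 was higher and 0 lower, with a median of 0.06: Snapc2, a subunit of the complex that binds the promoters of 7SK, RNase P and RNase MRP RNA, rose from 104, 114 and 69 to 150, 173 and 225 counts (0.70, edgeR adjusted p = 0.00916). Its call held in 16 of 18 alternatives and was lost without control 3 (edgeR adjusted p = 0.0954) and with the replicate block. Of 8 tested proteins of the signal recognition particle 2 were higher, Srp72 (0.29, edgeR adjusted p = 0.0121) and Srp68 (0.29, edgeR adjusted p = 0.0416), with a median of 0.15. Srp72 was called in 13 of 18 alternatives and Srp68 in 6, and neither was called without any one control, without Rnmt cKO 2 or with the replicate block.

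Over the 6 libraries the log2 CPM of Rn7sk was followed most closely, among 9705 genes with a mean of at least 5 CPM, by the scaRNA gene Gm22442 (Pearson r = 0.9996), the snoRNA gene Gm26448 (0.9986) and the ribosomal protein genes Rpl35 (0.9981), Rps13 (0.9978) and Rps18 (0.9975). Gm22442 held 8644, 6377 and 5556 counts in controls and 3000, 3547 and 6069 in Rnmt cKO libraries, with a log2 fold change of -0.97, and Rpl35 fell by 0.71 on the log2 scale. Rpph1, Rmrp, Rny3 and Rny1 followed Rn7sk at r = 0.997, 0.995, 0.987 and 0.903, and Larp7, Mepce, Hexim1 and Ssb at -0.18, 0.70, 0.31 and -0.54. These values describe 6 libraries that share the difference between groups and the order within each group, and carry no test.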

How the data were processed

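The authors aligned paired-end reads to mm10 with STAR 2.5.2b and the GENCODE vM12 basic annotation, per the labels and the study's methods, and deposited raw counts of uniquely mapped reads per gene, unnormalized, for either strand and for each strand. Sense counts were used throughout, since dividing them by 1 constant per library gave the authors' deposited normalized signal for 100% of genes in their table. That table also holds a log2 fold change, p-values and mean abundance from the authors' own comparison, which were not used. Lines for unassigned reads (31.8% to 47.9% of unique reads in no gene) were kept out of library sizes. Rny1 is not in the authors' table and was taken by its identifier.

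Genes above 1 CPM in 3 or more libraries were tested with the edgeR 4.0.16 exact test (R 4.3.3) on TMM-scaled counts, with Benjamini-Hochberg adjustment over all 12336 genes and a threshold of 0.05. SEs come from log2 CPM with a prior count of 2. DESeq2 1.42.0 and 17 other fits were the alternatives, 2 of them chosen after seeing the data: scaling on protein-coding genes only, and the multimapping covariate. Shares and ratios were compared with exact permutation tests (scipy 1.17.1). Depth was 8873413 to 11277764 sense gene counts a library. On simulated counts with 200 changed genes the exact test recovered 173 (86.5%) and made 21 false calls among 12326 genes. Each gene was drawn independently there, so variation shared by many genes of a library, as seen for the 5 RNAs, was not simulated. P-values of edgeR and DESeq2 set the group difference against variation between the 3 samples of a group, with dispersions moderated over all genes. Those of the permutation tests set it against all divisions of the 6 libraries into groups of 3. The members and lists were chosen with earlier results of these data known. Named genes are the members, Rnmt, at most 4 called genes a list by smallest adjusted p, and the 5 genes with mean of at least 5 CPM most like Rn7sk. Other genes were named after their values were seen.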

Additional observations from a re-analysis of the deposited data

How the results depend on the processing

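Over 18 alternatives the 5 RNAs kept their direction, and the protein genes were not called. Of the 5 RNAs, 2 were called lower with DESeq2 (Rpph1 and Rny3), 3 with the filter at 10 CPM (Rny1 and Rny3 were then not tested), 3 to 5 when 1 library was left out, with 3 without control 1 or without Rnmt cKO 1, and 1, Rny3, with a replicate block (adjusted p = 0.137 for Rn7sk). The deviations of same-numbered libraries had r from -0.35 to -0.02, and those of control 1 and Rnmt cKO 3 had r = 0.35. Whether the numbers pair the samples was not tested, and neither was the cause of the lost calls. Genes called in all came to 1821, to 707 with the replicate block, 3162 with the share of reads in no gene and 3002 with the share of multimapping reads as a covariate, and to 1183 to 2529 when 1 library was left out. With no scaling beyond library size the median of all genes shifted by 0.12 on the log2 scale and 534 genes were lower and 1933 higher, against 838 and 983. Directions turned for Mepce with no scaling (0.051) and with the multimapping covariate (0.014), for Ccdc107 with that covariate (0.12), for Hexim1 without Rnmt cKO 3 (-0.076), and for the ratio of Rmrp to Rpph1 with counts of either strand (-0.14) and when 1 library was left out (-0.057 to 0.083). Depth limits Rny1 most, at 4 to 27 counts a library.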

Other observations

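The gene nearest to Rn7sk on the genome moved the other way. C920006O11Rik (ENSMUSG00000097574), a long non-coding RNA on the opposite strand whose annotated start lies 281 bases away, was chosen after its values were seen. It held 48, 48 and 39 counts in controls and 117, 138 and 83 in Rnmt cKO libraries, so that every Rnmt cKO library was above every control, with Rnmt cKO 3 the lowest of them. Its mean rose from 4.91 ± 0.68 to 10.5 ± 2.66 CPM (SD, n = 3 each), with log2 fold change 1.09 (SE 0.25) and adjusted p = 0.000291 (edgeR exact test), and it was called in all 17 alternatives in which it was tested. The neighbours of the other RNAs did not pass the test: Parp2, on the opposite strand 74 bases from Rpph1, had log2 fold change 0.10 (edgeR adjusted p = 0.668), and Ccdc107, which overlaps Rmrp on the opposite strand, -0.25 (edgeR adjusted p = 0.446), but -0.47 and past the threshold (0.0166) without Rnmt cKO 3.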
